A study of Mus musculus with 6 samples.

Results

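The genes described here are 10 genes known from Merkel cells and simple epithelia, all of which have a row among the 23377 gene symbols of the deposited count table. They are the keratins Krt7, Krt8, Krt18, Krt19 and Krt20, the transcription factors Atoh1, Sox2 and Isl1, the adhesion molecule Ncam1 and the touch channel Piezo2, and they were chosen by name. Expression was measured by RNA-seq in sorted hair follicle stem cells (HFSC) of C57BL/6 mice, with 2 libraries of the genotype Ring1a/b-/- (RingKO) and 2 wild-type (WT) libraries. Polycomb repressive complex 1 contains either Ring1a or Ring1b as its ubiquitin ligase, modifies histone H2A and keeps genes of development repressed. Each library was made from 3000 cells by SMART-seq2, in which RNA is primed at its poly(A) tail and the cDNA is amplified before sequencing. A sort on Lgr5-GFP is described for the ChIP libraries of the study, but the marker used for the RNA libraries is not stated. The labels state neither the age of the mice, nor how the deletion was induced, nor whether each library is a different animal, and p-values therefore reflect how much these 4 libraries vary, and that variation may be technical.

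Merkel cells are touch-sensitive cells at the base of the epidermis that contact sensory nerve endings and arise from keratinocyte progenitors. The transcription factor Atoh1 is required to form them, Sox2 and Isl1 act with it, and mature cells contain the simple-epithelial keratins Krt8, Krt18 and Krt20, the mechanically gated channel Piezo2 and a set of neuroendocrine and synaptic vesicle genes. Keratin filaments are obligate pairs of a type II and a type I chain: Krt8 pairs mainly with Krt18 in single-layered epithelia, while Krt5 pairs with Krt14 in basal keratinocytes. In mouse epidermis, Polycomb complexes are known to hold Merkel cell regulators silent.

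The RingKO libraries held 4844381 and 7740945 counts and the WT libraries 2785843 and 3056593, so a single count is worth 0.202 and 0.124 CPM in RingKO and 0.380 and 0.334 CPM in WT libraries (CPM, counts scaled to a common library size after TMM normalization). The sorted cells had the keratins of basal and follicle keratinocytes in every library: Krt5 stood at 364 and 306.0 CPM in RingKO and 430.2 and 364 CPM in WT libraries, and Krt15, a keratin of bulge stem cells, at 303 and 250.2 CPM in RingKO and 417 and 362 CPM in WT libraries. The level of Ring1 (the gene of Ring1a) was 15.5 and 18.4 CPM in RingKO and 31.9 and 29.4 CPM in WT libraries, and that of Rnf2 (the gene of Ring1b) was 151 and 153 CPM in RingKO and 144 and 87.8 CPM in WT libraries. The labels do not say which exons were deleted, and these counts cover whole genes, so they do not check the genotype.

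The comparison asks whether these genes differ between RingKO and WT follicle stem cells. Krt18, Krt8, Isl1, Ncam1 and Piezo2 each stood higher in both RingKO libraries than in either WT library, as did Krt7 and Sox2, which had 0 counts in the WT. Krt19, Krt20 and Atoh1 overlapped between genotypes. For 7 of the 10 genes, then, the groups did not overlap with RingKO higher, while 22.4% of all genes with any count showed that pattern. Krt7 is among the 7 by only 2 counts in RingKO replicate 1 (0.404 CPM), close to the worth of a single WT count (0.380 and 0.334 CPM). When the 13134 genes with enough counts were tested by edgeR with Benjamini-Hochberg adjustment, 0 of the 6 chosen genes among them passed an adjusted p of 0.05, where 0.0609% of all genes passed and 0.0533% passed as higher. At an unadjusted p under 0.05 edgeR gave 2 of the 6 as higher, Krt18 and Ncam1, and 0 as lower, where 8.47% of all genes tested were higher. Both of these genes also passed in DESeq2 at an adjusted p of 0.05, where 6.21% of 14502 genes were called higher, while limma-voom called 0 of the 6, with 1 at an unadjusted p under 0.05. With the replicate number as a block, edgeR called 1 of the 6 as higher, Krt18, where 1.62% of all genes were called higher.

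The other 4 genes, Krt7, Krt20, Sox2 and Atoh1, fell under the filter on low counts, which asked for about 2.53 CPM in at least 2 libraries. Isl1, Ncam1 and Piezo2 met that level in both RingKO libraries but in only 1 WT library each, so they entered the test through the RingKO libraries and could hardly have tested as lower. Krt8, Krt18 and Krt19 met it in all 4 libraries. Among the 6 tested genes 5 had a log2 fold change (RingKO over WT) of at least 1, as did 14.7% of all genes tested. Their median was 2.89 against 0.03 over all genes tested, which the filter and the choice of genes can both set. With 2 libraries per genotype, an exact two-sided permutation test of a single gene cannot go below p = 0.333. In bulk RNA, fewer cells of a type and less RNA per cell cannot be told apart.

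**Figure D1:**
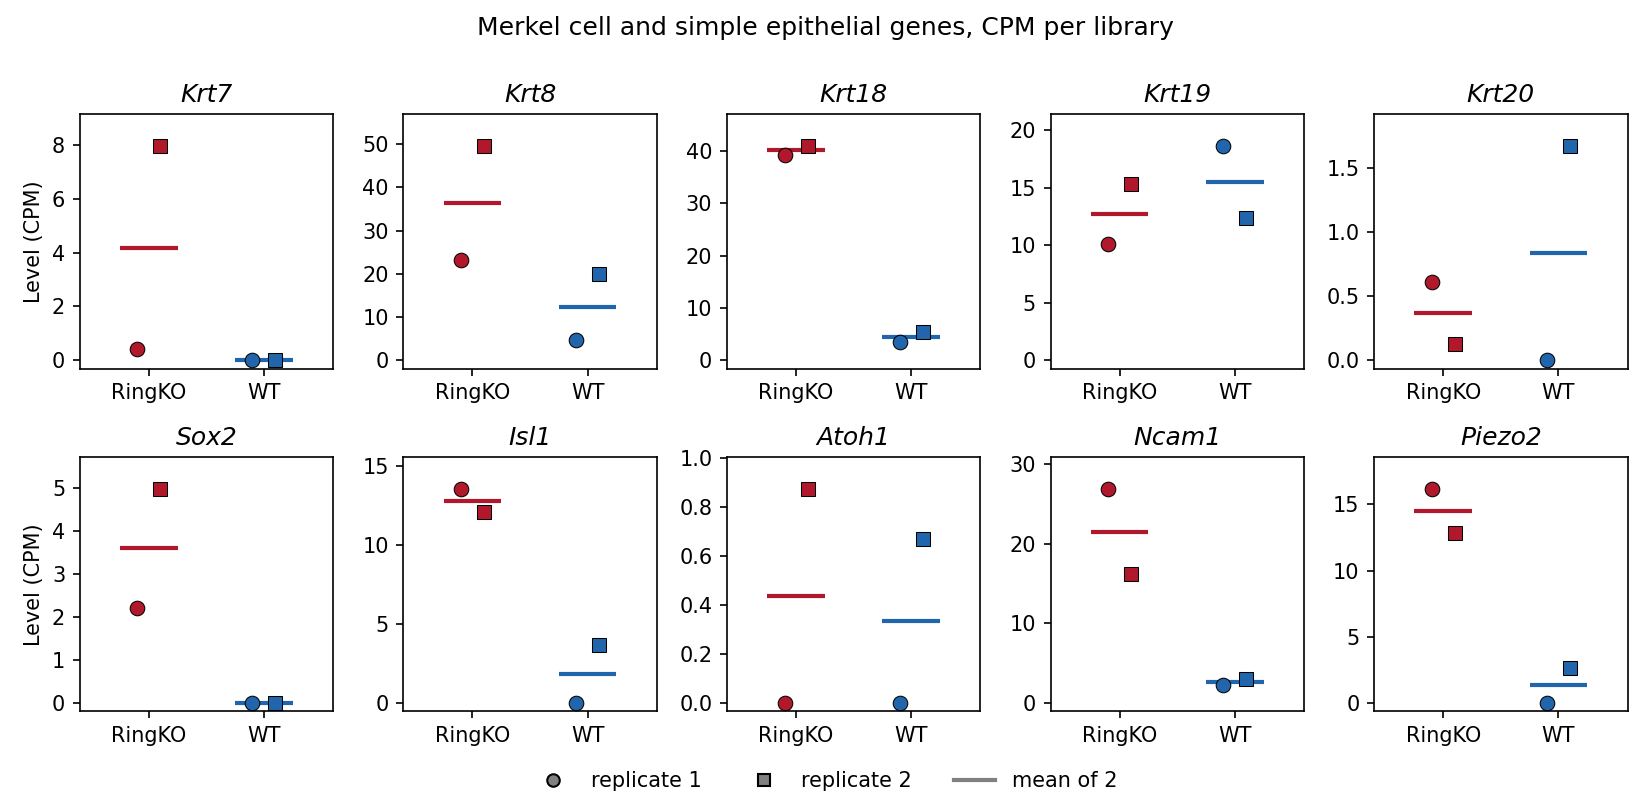
Level of each of the 10 genes in CPM (vertical axes, linear and scaled per gene) in the RingKO libraries (red, left) and WT libraries (blue, right); circles are replicate 1, squares replicate 2 and lines the mean of 2. Krt18 stands at 39.4 and 41.0 CPM in RingKO libraries, above both WT libraries at 3.42 and 5.34 CPM, while Krt19, Krt20 and Atoh1 overlap between genotypes.

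Of the type II keratins, Krt8, the partner of Krt18, had 115 and 398 counts in RingKO and 12 and 60 counts in WT libraries. This equals 23.2 and 49.5 CPM in RingKO, against 4.56 and 20.0 CPM in WT libraries. Both RingKO libraries were above both WT libraries, but replicate 1 in RingKO was closer to replicate 2 in WT than to the other RingKO library. The log2 fold change was 1.56 ± 0.82 (SE; edgeR adjusted p = 0.390), and it depended on single libraries: 2.98 without WT replicate 2, 0.87 without WT replicate 1, 0.90 without RingKO replicate 2 and 2.00 without RingKO replicate 1.

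Krt7, a type II keratin of ductal and glandular epithelia, had 2 and 64 counts in RingKO libraries and 0 in both WT libraries. Its level was 0.404 and 7.97 CPM in RingKO, so nearly all of its counts came from replicate 2. At the mean RingKO level of 4.19 CPM, the WT libraries would have held 11.02 and 12.5 counts. Against a floor of 3 counts over the WT group (0.533 CPM), Krt7 was at least 7.86-fold higher in RingKO, and at least 14.9-fold without RingKO replicate 1. Without RingKO replicate 2, the 2 remaining counts were under the floor and allow no fold. Without WT replicate 1 the bound was at least 4.24-fold and without WT replicate 2 at least 3.66-fold, since the floor then rests on 1 library.

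Krt18, the type I partner of Krt8, had 195 and 329 counts in RingKO and 9 and 16 counts in WT libraries. Its level was 39.4 and 41.0 CPM in RingKO, against 3.42 and 5.34 CPM in WT libraries, a mean of 40.2 ± 1.12 CPM in RingKO and 4.38 ± 1.36 CPM in WT (SD, n = 2 each). Krt18 had the smallest p of the 6 tested genes: its log2 fold change was 3.19 ± 0.70 (SE, 9.10-fold; edgeR unadjusted p = 0.0016, adjusted p = 0.147). Leaving out any 1 library kept the log2 fold change between 2.91 and 3.53, with an edgeR adjusted p between 0.0821 and 0.615. In the authors' deposited table Krt18 had a log2 fold change of 3.19 with an adjusted p of 8.62e-06. DESeq2 run here on the deposited counts gave the same values, so these are not separate evidence.

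Relative to each other, Krt8 and Krt18 were not in the same proportion in all libraries. The ratio of Krt8 to Krt18 counts was 0.590 and 1.21 in RingKO libraries and 1.33 and 3.75 in WT libraries, so the ratio was lower in both RingKO libraries, although RingKO replicate 2 and WT replicate 1 differed little. The summed level of Krt8 and Krt18 equalled 10.2% and 17.6% of that of Krt5 and Krt14 in RingKO libraries, against 1.10% and 3.88% in WT libraries. These are ratios of CPM with no correction for transcript length, so they can be compared between libraries but not read as a proportion of keratin molecules. Krt5 and Krt14 together stood at 611 and 514 CPM in RingKO, against 722 and 654 CPM in WT libraries. The labels do not say how reads that match more than 1 place were counted, and RefSeq lists a pseudogene copy of Krt8, so the Krt8 counts are uncertain to that extent.

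Krt19, a type I keratin of simple epithelia that is also present in bulge stem cells, had 50 and 123 counts in RingKO and 49 and 37 in WT libraries. Its level was 10.1 and 15.3 CPM in RingKO, against 18.6 and 12.3 CPM in WT libraries. The groups overlapped. Krt19 had a log2 fold change of -0.28 with an SE of 0.84 (edgeR adjusted p = 0.934), and its sign turned without WT replicate 1 (0.051). Krt20, the type I keratin that is the most specific of the 5 for Merkel cells in skin, had 3 and 1 counts in RingKO and 0 and 5 counts in WT libraries. Its level was 0.606 and 0.124 CPM in RingKO, against 0 and 1.67 CPM in WT libraries, and the ratio of 0.347 had a 95% exact counting interval from 0.0688 to 1.61. A difference in Krt20 was not detectable at this depth. Counting intervals and floors here include no error beyond counting, and reads copied by PCR are not separate molecules.

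**Figure D2:**
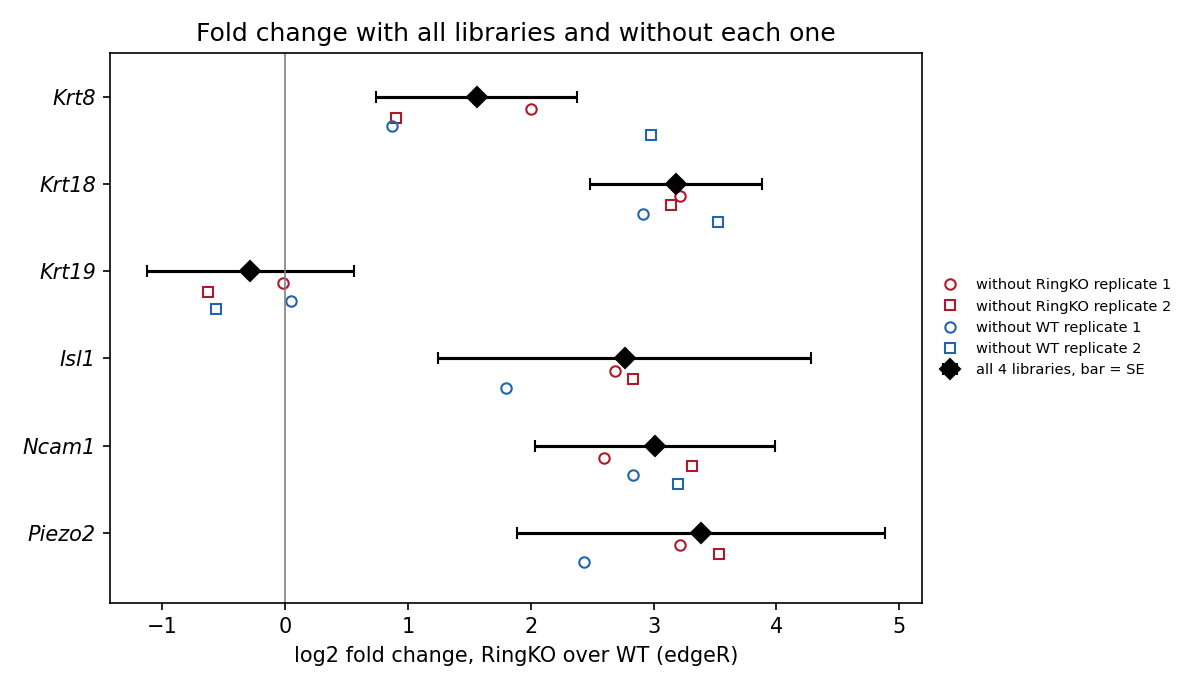
Log2 fold change of RingKO over WT from edgeR (horizontal axis) for the 6 genes tested: black diamonds use all 4 libraries with bars of 1 SE, and open symbols leave out 1 library each (red, a RingKO library; blue, a WT library). Krt18 stays between 2.91 and 3.53 whichever library is left out, while Krt8 moves between 0.87 and 2.98; values for Isl1 and Piezo2 without WT replicate 2 are not drawn, because the remaining WT library held 0 counts.

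Among the transcription factors, Atoh1, the basic helix-loop-helix factor that starts the Merkel cell program, had 0 and 7 counts in RingKO and 0 and 2 counts in WT libraries. The level was 0 and 0.871 CPM in RingKO, against 0 and 0.667 CPM in WT libraries, and the ratio of 1.52 had a counting interval from 0.289 to 14.97. In each genotype it was found in replicate 2 only, and no difference was detectable at this depth.

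Sox2, an HMG-box factor of Merkel cells, dermal papilla and neural progenitors, had 11 and 40 counts in RingKO and 0 in both WT libraries. Its level was 2.22 and 4.98 CPM in RingKO libraries, at least 6.76-fold higher than the floor of 3 counts over the WT group. At the mean RingKO level the WT libraries would have held 9.48 and 10.8 counts. The bound was at least 9.34-fold without RingKO replicate 1, at least 4.13-fold without RingKO replicate 2, and at least 3.62-fold and at least 3.13-fold without WT replicates 1 and 2. The gene Sox2 lies within the long noncoding transcript Sox2ot, which was present in both genotypes, at 5.65 and 3.11 CPM in RingKO and 4.56 and 5.34 CPM in WT libraries. The labels do not state whether strand was used or how overlapping genes were treated, so a part of the reads of either may be counted for the other.

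Isl1, a LIM homeodomain factor of Merkel cells and sensory and motor neurons, had 67 and 97 counts in RingKO and 0 and 11 counts in WT libraries. Its level was 13.5 and 12.1 CPM in RingKO, against 0 and 3.67 CPM in WT libraries, so the RingKO libraries were alike and the WT libraries were not. The log2 fold change was 2.76 ± 1.52 (SE; edgeR adjusted p = 0.412). Without WT replicate 1 it was 1.80, and without WT replicate 2, which leaves 0 WT counts, Isl1 was at least 11.1-fold higher in RingKO.

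Of the surface proteins, Ncam1, a neural cell adhesion molecule that also marks Merkel cells, had 133 and 130 counts in RingKO and 6 and 9 counts in WT libraries. Its level was 26.9 and 16.2 CPM in RingKO, against 2.28 and 3.00 CPM in WT libraries, with a mean of 21.5 ± 7.54 CPM in RingKO and 2.64 ± 0.51 CPM in WT (SD, n = 2 each). The log2 fold change was 3.01 ± 0.98 (SE, 8.06-fold; edgeR unadjusted p = 0.0142, adjusted p = 0.186). It stayed between 2.60 and 3.31 whichever library was left out. In the authors' deposited table Ncam1 had a log2 fold change of 3.02 with an adjusted p of 0.00506. Ncam1 and Krt18 were the 2 of these genes under 0.05 there among the 8 with an adjusted p. Over all genes there, 901 of 14502 were under 0.05 and higher, and 891 lower. DESeq2 run here on the deposited counts gave nearly the same values for Ncam1 (3.02, adjusted p = 0.00505), so the deposited values are not separate evidence.

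Piezo2, the channel that turns touch into current in Merkel cells and sensory neurons, had 80 and 103 counts in RingKO and 0 and 8 counts in WT libraries. Its level was 16.2 and 12.8 CPM in RingKO, against 0 and 2.67 CPM in WT libraries. The ratio was 9.92, its counting interval ran from 4.93 to 23.3, and the fitted log2 fold change was 3.39 ± 1.5 (SE; edgeR adjusted p = 0.305). Without WT replicate 1 the log2 fold change was 2.43, and without WT replicate 2, which leaves 0 WT counts, Piezo2 was at least 12.5-fold higher in RingKO. Isl1 and Piezo2 thus had the same layout, 0 counts in WT replicate 1, a low level in WT replicate 2 and a higher level in both RingKO libraries.

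Summed over the 10 genes, the level was 132 and 161 CPM in RingKO, against 28.9 and 49.4 CPM in WT libraries. A count was found for 9 and 10 of the genes in RingKO libraries and for 4 and 8 in WT libraries, where the RingKO libraries were the deeper pair. The 3 genes whose levels over the 4 libraries were nearest to those of Krt8, the gene of highest mean CPM, by Euclidean distance of log2(CPM + 1) were Cgnl1 (distance 0.49), Gdpgp1 (0.53) and Gulp1 (0.55). Cgnl1, which encodes a cingulin-like protein of cell junctions, stood at 25.8 and 52.2 CPM in RingKO and 3.04 and 20.4 CPM in WT libraries. Likeness over 4 libraries is shared by many genes and is given as a description.

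Of the other genes of the Merkel cell program, Cplx2, Sox21 and Syt1 stood higher in both RingKO libraries than in either WT library, and Mycl and Tubb3 stood lower in both. Among all genes tested, 24.8% stood higher in this way and 22.3% lower, though Syt1 and Tubb3 were not among those tested. Syt1, a calcium sensor of synaptic vesicles, had 28 and 6 counts in RingKO and 0 in both WT libraries, at least 6.01-fold higher than the floor, the same layout as Krt7 and Sox2. Of 30 further Merkel cell genes, 7 had enough counts to test and edgeR called 0 higher and 0 lower, with 0 in either direction at an unadjusted p under 0.05. DESeq2 called 0 and limma-voom 0. Their median log2 fold change was 0.14, against 0.03 over all genes tested. The regulators Mycl and Hes6 had the highest CPM in the list, with no correction for length: Mycl stood at 212 and 188 CPM in RingKO and 215 and 251 CPM in WT libraries, and Hes6 at 97.3 and 74.9 CPM in RingKO and 75.2 and 80.8 CPM in WT libraries. The active-zone proteins of the synapse Pclo and Bsn overlapped between genotypes, at 40.0 and 16.9 CPM in RingKO and 31.1 and 22.0 CPM in WT libraries for Pclo, and 8.68 and 7.72 CPM in RingKO and 12.2 and 8.34 CPM in WT libraries for Bsn. The largest log2 fold change in the list was that of Cplx2, which encodes complexin 2 of vesicle release, at 1.33 ± 0.99 (SE; edgeR adjusted p = 0.579), with 21.8 and 14.3 CPM in RingKO and 11.4 and 3.00 CPM in WT libraries. Next were Sox21, an HMG-box factor with 77.3 and 59.0 CPM in RingKO and 33.8 and 50.7 CPM in WT libraries, at 0.69 ± 0.38, the opioid peptide precursor Penk at 0.36 ± 1.2 and Bsn at -0.32 ± 1.00.

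The secretory and vesicle genes of the list were not alike. Penk, at 12.7 and 6.10 CPM in RingKO and 1.90 and 12.7 CPM in WT libraries, Cplx2 and Pclo were present in all 4 libraries. The POU factor Pou4f3, the neuropeptide genes Cck, Sst and Vip and the granule proteins Scg2 and Scg5 had 0 counts in all 4 libraries, and the granin Chga had 1 count in all. Over the list, 15 and 10 of the 30 genes were at 0 in RingKO libraries and 16 and 15 in WT libraries. Gfi1, a zinc finger target of Atoh1, had 0 and 8 counts in RingKO and 0 in both WT libraries. The summed level of the 30 genes was 484 and 385 CPM in RingKO, against 413 and 449 CPM in WT libraries, so the groups overlapped. Mycl, Hes6 and Sox21 made up most of this sum in every library, so it says little about the other genes of the list.

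Most other genes of simple epithelia with enough counts had small fold changes. Of 25 such genes 19 were tested, and edgeR called 0 higher and 0 lower, with 2 higher and 3 lower at an unadjusted p under 0.05 (8.16% of all genes tested were lower). Their median log2 fold change was -0.20. DESeq2 called 2 higher and 3 lower of the 21 with an adjusted p, where it called 901 higher and 891 lower of 14502 genes. With limma-voom 0 were called. The cadherin Cdh3 stood at 266 and 214 CPM in RingKO and 248 and 225 CPM in WT libraries. Cdh1, which encodes E-cadherin, stood at 198 and 211 CPM in RingKO and 262 and 251 CPM in WT libraries, Esrp1, an epithelial splicing factor, at 173 and 195 CPM in RingKO and 224 and 199 CPM in WT libraries, and Epcam, an epithelial adhesion protein, at 147 and 130 CPM in RingKO and 180 and 217 CPM in WT libraries. Cdh1, Esrp1 and Epcam were lower in both RingKO libraries than in either WT library, as were 22.3% of all genes tested.

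In that list Prom1 and Cgn had the largest log2 fold changes and were the 2 higher at an unadjusted p under 0.05. Both entered the test through the RingKO libraries and could hardly have tested as lower. Prom1, which encodes the apical membrane protein prominin 1, had 73 and 81 counts in RingKO and 3 and 0 counts in WT libraries. The ratio was 22.3, its counting interval ran from 7.47 to 109, and the edgeR adjusted p was 0.209. Cgn, which encodes the tight junction protein cingulin, had 139 and 234 counts in RingKO and 12 and 0 counts in WT libraries, and its log2 fold change was 3.66 ± 1.35 (SE; edgeR adjusted p = 0.229). The next in size were Krt23, a keratin gene next to Krt20, at -0.78 ± 0.73 and the small GTPase Rab25 at -0.64 ± 0.21. The claudin genes were low or overlapped: Cldn4 stood at 23.8 and 41.7 CPM in RingKO and 50.9 and 35.4 CPM in WT libraries, and Cldn3 had 0 and 4 counts in RingKO and 0 in both WT libraries.

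**Figure D3:**
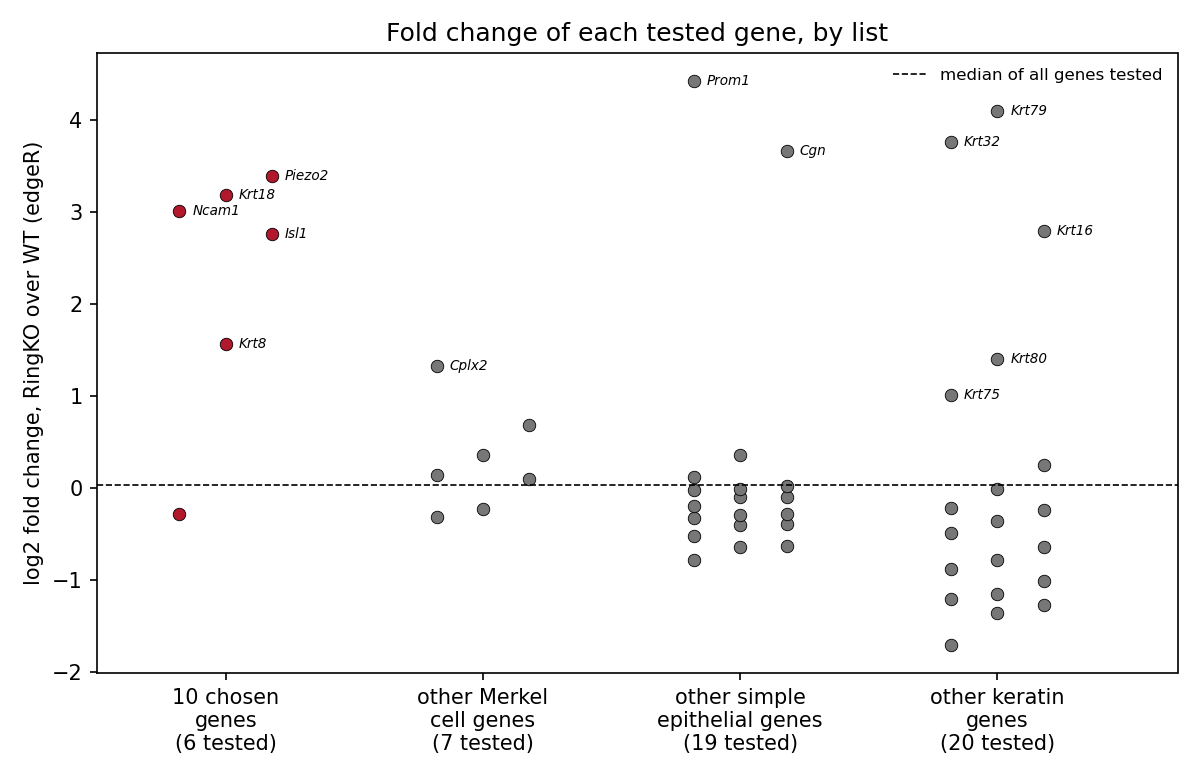
Log2 fold change of RingKO over WT from edgeR (vertical axis) for each tested gene of 4 lists: 6 of the 10 chosen genes (red), 7 other Merkel cell genes, 19 other simple epithelial genes and 20 other keratin genes (grey); genes at 1 or above are named and the dashed line is the median of all genes tested, 0.03. Of the chosen genes 5 lie above 1, against 5 of the other keratins. The same holds for 1 of the other Merkel cell genes and 2 of the other simple epithelial genes. Isl1, Ncam1, Piezo2, Prom1, Cgn and Krt79 entered the test through the RingKO libraries.

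Among the other keratin genes, 47 were in the table and 20 were tested, with 0 called in either direction by edgeR, 3 higher and 7 lower at an unadjusted p under 0.05 and a median log2 fold change of -0.43. Over all genes tested, 8.47% were higher and 8.16% lower at that p. The 3 higher were Krt79, which entered the test through the RingKO libraries, Krt75 and Krt32. Of the 7 lower, 5 were the inner root sheath keratins Krt25, Krt27, Krt28, Krt71 and Krt73, beside Krt15 and Krt35. A log2 fold change of at least 1 was found for 5 of the 20, as it was for Krt8 and Krt18, and one of -1 or below for 6.

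By position, Krt7, Krt8 and Krt18 lie on mouse chromosome 15 and Krt19 and Krt20 on chromosome 11, in the type II and type I keratin clusters, with Krt18 as the type I gene that sits beside Krt8 in the type II cluster. The order of protein-coding genes in the count table, taken from RefSeq on GRCm38.p6, is Krt79, Krt78, Krt8, Krt18, Eif4b. Krt79, a keratin of the upper follicle, stood at 222 and 162 CPM in RingKO and 20.9 and 2.00 CPM in WT libraries (log2 fold change 4.10 ± 0.75, SE; edgeR adjusted p = 0.124). Krt78 between them had 1 count in all 4 libraries. Eif4b, a translation initiation factor on the other side of Krt18, stood at 219 and 273 CPM in RingKO and 346 and 319 CPM in WT libraries. Along this stretch Krt79, Krt8 and Krt18 thus stood higher in both RingKO libraries and Eif4b lower, while Krt78 had too few counts to show a difference. A change shared by neighbouring genes was not tested. Beside Krt20, the corneal keratin Krt12 had 7 and 44 counts in RingKO and 0 in both WT libraries, at least 6.47-fold higher than the floor, and beside Krt19 were Krt15 and Krt9, which had 1 count in all libraries. Beside Sox2, Dnajc19 and Atp11b stood at 93.1 and 83.8 CPM in RingKO and 121 and 119 CPM in WT libraries, and at 127 and 110 CPM in RingKO and 171 and 99.4 CPM in WT libraries. Of the neighbours of Isl1, Parp8 stood at 45.2 and 32.7 CPM in RingKO and 25.8 and 20.0 CPM in WT libraries, and Pelo overlapped between genotypes. Ttc12 beside Ncam1 stood at 19.6 and 30.7 CPM in RingKO and 0.38 and 16.7 CPM in WT libraries, while Plet1 on its other side overlapped. Napg beside Piezo2 overlapped as well.

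Promoter sequences were available from RefSeq (GRCm38.p6) for 7 of the 10 genes, Krt7, Krt8, Krt18, Krt20, Sox2, Isl1 and Atoh1. Polycomb complexes are known to gather at promoters rich in CpG, so the 250 bases before the annotated start are shown for the keratin pair Krt8 and Krt18 and for the factors Sox2 and Isl1, with each CG in capitals. They lie at chr15:102004343-102004592 (minus strand), chr15:102027966-102028215 (plus strand), chr3:34649745-34649994 (plus strand) and chr13:116309689-116309938 (minus strand), and each is given 5′ to 3′ on the strand of its gene.
Krt8: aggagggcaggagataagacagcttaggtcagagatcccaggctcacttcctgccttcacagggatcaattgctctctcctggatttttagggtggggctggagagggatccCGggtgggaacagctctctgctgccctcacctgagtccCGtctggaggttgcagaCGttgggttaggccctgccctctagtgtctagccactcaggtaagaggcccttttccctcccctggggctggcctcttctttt
Krt18: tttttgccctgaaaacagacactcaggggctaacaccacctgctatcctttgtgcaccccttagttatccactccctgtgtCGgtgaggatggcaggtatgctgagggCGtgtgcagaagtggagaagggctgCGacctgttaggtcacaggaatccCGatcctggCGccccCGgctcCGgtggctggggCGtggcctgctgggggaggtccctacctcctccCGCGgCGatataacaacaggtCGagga
Sox2: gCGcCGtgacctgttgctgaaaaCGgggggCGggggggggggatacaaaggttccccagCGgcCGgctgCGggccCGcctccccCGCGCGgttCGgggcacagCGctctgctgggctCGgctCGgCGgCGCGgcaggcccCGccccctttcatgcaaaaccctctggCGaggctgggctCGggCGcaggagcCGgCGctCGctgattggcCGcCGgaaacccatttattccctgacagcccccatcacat
Isl1: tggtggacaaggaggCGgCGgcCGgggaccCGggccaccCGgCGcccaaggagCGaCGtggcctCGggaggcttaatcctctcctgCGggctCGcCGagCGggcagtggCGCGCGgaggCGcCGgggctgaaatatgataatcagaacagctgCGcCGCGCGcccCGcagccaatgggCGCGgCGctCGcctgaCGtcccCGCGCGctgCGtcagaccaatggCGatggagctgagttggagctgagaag
The Krt8 stretch holds 3 CG and the Krt18 stretch 12, mostly in the part nearer the start, while the Sox2 stretch holds 27 and the Isl1 stretch 33, spread along it.

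Measured as CpG observed over expected, the keratin promoters stood at 0.143 (Krt8), 0.347 (Krt20), 0.527 (Krt18) and 0.596 (Krt7), and those of the transcription factors at 0.728 (Atoh1), 0.833 (Sox2) and 1.05 (Isl1). The median of 32851 RefSeq promoters was 0.373. The share of promoters with a lower value was 21.3% for Krt8, 61.3% for Krt18, 83.5% for Sox2 and 96.4% for Isl1. Of the genes below the median, Krt8 stood higher in both RingKO libraries and Krt20 overlapped between genotypes. Of those above it, Krt7, Krt18, Sox2 and Isl1 stood higher in both RingKO libraries and Atoh1 overlapped. Krt20 and Atoh1 had too few counts to show a difference. A link between CpG content and these levels was not tested. A search of the 300 bases that also take in 50 after the start, on both strands, found TATAAA in 2 of the 7 promoters, Krt8 and Krt20, and in 13.6% of all promoters. CCAAT was found in 3, those of Sox2, Isl1 and Atoh1, and in 37.4% of all, GGGCGG in 3 and in 35.7% of all, and CANNTG, the core letters bound by helix-loop-helix factors, in 5 and in 72.3% of all. None of these motifs contains another, and a match is a description of letters only. Ring1b binding at these promoters was not analysed here, because the peak lists are on mm9 and no annotation of that build was used.

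**Figure D4:**
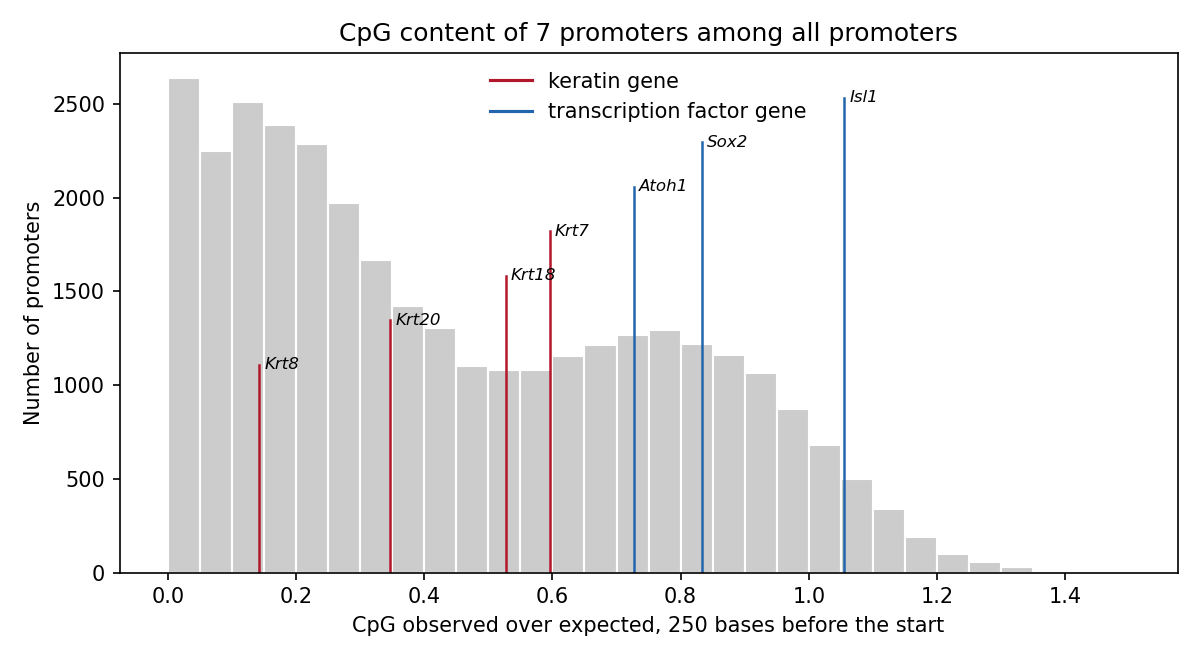
Number of RefSeq promoters (vertical axis) by CpG observed over expected in the 250 bases before the start (horizontal axis, bins of 0.05), in grey; vertical lines mark the 7 promoters found, keratins in red and transcription factors in blue, with heights set only to separate the labels. Krt8 lies at 0.143 and Isl1 at 1.05, on opposite sides of the median of 0.373.

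Several of these genes are also known from other cells that a sort of follicle cells could hold, so markers of those cells were read in the same libraries. Sweat gland markers, for Krt7, Krt8, Krt18 and Krt19, summed to 108 and 97.5 CPM in RingKO and 29.6 and 19.4 CPM in WT libraries over 8 genes, of which edgeR called 0. Most of this was Slc12a2, a salt cotransporter also present in many other epithelia, at 106 and 74.6 CPM in RingKO and 16.3 and 15.02 CPM in WT libraries (edgeR adjusted p = 0.0831). Trpv6, a calcium channel, stood at 2.42 and 22.3 CPM in RingKO and 13.3 and 4.00 CPM in WT libraries. The defining gland markers Aqp5, Sox10 and Chrm3 had 0 counts in all libraries, and Krt77, Foxa1 and Foxi1 had 3 or fewer.

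Schwann and nerve markers, for Ncam1, Sox2 and Piezo2, summed to 224 and 231 CPM in RingKO and 99.9 and 205 CPM in WT libraries over 11 genes, with 0 called by edgeR. The highest CPM were those of Pmp22, at 108 and 91.1 CPM in RingKO and 12.5 and 70.1 CPM in WT libraries, and Erbb3, at 71.9 and 67.8 CPM in RingKO and 48.2 and 81.4 CPM in WT libraries. Sox10 was at 0 in all libraries, and Mbp, myelin basic protein, stood at 8.88 and 13.4 CPM in RingKO and 1.90 and 2.00 CPM in WT libraries. Fibroblast and dermal papilla markers, for Sox2 and Ncam1, summed to 474 and 336 CPM in RingKO and 690.3 and 854 CPM in WT libraries over 12 genes, led by the matrix proteins Dcn, at 272 and 159 CPM in RingKO and 593 and 430.1 CPM in WT libraries, and Vcan, at 57.5 and 81.8 CPM in RingKO and 27.0 and 46.1 CPM in WT libraries. At an unadjusted p under 0.05, edgeR gave 1 of the 9 tested as higher, Alpl, and 3 as lower, Dcn, Col1a1 and Col1a2. The collagens Col1a1 and Col1a2 overlapped between genotypes. Over all genes tested, 8.47% were higher and 8.16% lower at that p. Of the papilla markers, Corin had 0 and 3 counts in RingKO and 0 in both WT libraries. Alpl, alkaline phosphatase, stood at 37.1 and 56.5 CPM in RingKO and 14.8 and 1.67 CPM in WT libraries (edgeR unadjusted p = 0.0229, adjusted p = 0.220). With 5 counts in WT replicate 2, under the filter level, Alpl entered the test through the RingKO libraries. Pdgfra, a fibroblast receptor, stood at 6.66 and 12.2 CPM in RingKO and 0.380 and 6.34 CPM in WT libraries. The part of papilla cells in the level of Sox2 was not tested.

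Leukocyte markers had a higher summed level in both RingKO libraries. Without Epcam, which is also epithelial, the other 12 summed to 783 and 345 CPM in RingKO and 166 and 167 CPM in WT libraries. Of these, 5 of 9 tested were higher at an unadjusted p under 0.05, where 8.47% of all genes tested were higher, and edgeR called 0 after adjustment. Lyz2, a lysozyme of myeloid cells, stood at 153 and 74.2 CPM in RingKO and 49.4 and 40.7 CPM in WT libraries, and the T cell genes Cd3e and Cd3g had 2 or fewer counts in any library. The part of leukocytes in the levels of the chosen genes was not tested. Intestinal epithelial markers, for Krt8, Krt18, Krt19, Krt20 and Atoh1, summed to 48.5 and 42.3 CPM in RingKO and 20.9 and 36.4 CPM in WT libraries over 12 genes, led by Lgals4, at 13.3 and 14.8 CPM in RingKO and 11.01 and 19.4 CPM in WT libraries, and Lyz1, at 22.8 and 10.1 CPM in RingKO and 4.94 and 6.34 CPM in WT libraries. Cdx1 was at 0 in all libraries and Cdx2 had 1 and 2 counts in RingKO and 0 in WT libraries.

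The summed markers of the remaining cell types did not stand higher in both RingKO libraries. Melanocyte markers summed to 187 and 133 CPM in RingKO and 194 and 197 CPM in WT libraries over 8 genes, led by Kit and Mitf. Sebocyte markers summed to 780 and 727 CPM in RingKO and 1009 and 881 CPM in WT libraries over 10 genes, led by the lipid enzymes Fasn and Scd1. Endothelial markers summed to 2.83 and 0.747 CPM in RingKO and 14.8 and 52.1 CPM in WT libraries over 8 genes, led by Tek and Kdr. Follicle stem cell markers summed to 2640 and 2248 CPM in RingKO and 2252 and 2430 CPM in WT libraries over 14 genes, led by Krt5 and Krt15. At an unadjusted p under 0.05, 4 of the 14 were higher and 1 lower, where 8.47% of all genes tested were higher and 8.16% lower. After adjustment edgeR called 0. In that list Lgr5, a receptor of stem cells, stood at 251 and 240 CPM in RingKO and 140 and 194 CPM in WT libraries, and Sox9, a factor of bulge stem cells, at 172 and 156 CPM in RingKO and 49.4 and 95.1 CPM in WT libraries. Nfatc1, a factor of quiescent bulge cells, had 192 and 273 counts in RingKO and 0 and 7 counts in WT libraries, so it entered the test through the RingKO libraries. Itgb4 and Tcf7l1 also stood higher in both RingKO libraries. Cd34, at 15.3 and 2.61 CPM in RingKO and 24.3 and 20.4 CPM in WT libraries, Krt14 and Krt15 stood lower in both. Among all genes tested, 24.8% stood higher in both RingKO libraries and 22.3% lower in both. The basal keratins Krt5, Krt14, Krt15 and Krt17 summed to 1301 and 1033 CPM in RingKO and 1570 and 1346 CPM in WT libraries. The part of any of these cell types in the levels of the 10 genes was not tested.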

How the data were processed

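The count table deposited by the authors holds whole-number counts per gene symbol with no normalization, a column per library, for 23377 symbols; it has 0 blank or total rows. Per the submitters' processing notes, HTSeq 0.7.2, TopHat2 2.1.1, Bowtie 1.2.2 and DESeq2 were used with build mm9; annotation, settings and strand: not given in the sources used here. A second table deposited by the authors holds, per the file headers, log2 fold changes (RingKO over WT), standard errors and adjusted p-values.

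The main test was edgeR 4.0.16 (R 4.3.3) after the default filterByExpr and TMM, by robust quasi-likelihood fits (glmQLFit, glmQLFTest), genotype being the single term, and Benjamini-Hochberg adjustment over all genes tested. DESeq2 1.42.0 and limma 3.58.1 were alternatives, as were other filters, offsets that remove a trend on abundance (loess span 0.3), a replicate block and leaving out each library. Standard errors were taken as the log2 fold change divided by the root of its F statistic. The procedure was tested on simulated data. Promoters were read in Python 3.11.15.

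The 10 genes and the gene lists were chosen with earlier results of these data known. Genes named beside them were, from the 2 wider lists, the 4 most abundant and the 4 of largest log2 fold change, and from each marker list the 2 most abundant; neighbours and other list members were named after their values were seen. Some genes of these lists are not reported here. CPM was not corrected for transcript length, since only the genomic span of genes was at hand, so ranks by CPM and ratios between genes describe reads, not molecules.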

Additional observations from a re-analysis of the deposited data

How the results depend on the processing

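The number of genes past an adjusted p of 0.05 was 8 with all libraries and 8 with DESeq2 size factors. It was 1792 with the DESeq2 test, 802 with no low-count filter, 1 when genes needed 1 CPM in 2 libraries, 1 with the abundance trend removed and 0 with limma-voom (779 higher and 1177 lower unadjusted), and ran from 0 to 60 when 1 library was left out. Of the 10 genes, 0 passed with edgeR, 2 with DESeq2 (Krt18 and Ncam1), and 1, Krt18, with no low-count filter (edgeR adjusted p = 0.00895), where 2.42% of all genes were called higher. Of the other simple epithelial genes 5 of 21 with an adjusted p passed with DESeq2, where 1792 of 14502 genes passed. With no filter 1 of 25 passed, where 802 of 18827 genes passed. Of the other Merkel cell genes 0 passed under each alternative run.

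The labels give equal replicate numbers without saying what they share. With the number as a replicate block, edgeR called 416 genes, among them 1 of the 10, Krt18 (adjusted p = 0.0370; 1.62% of all genes were called higher). The deviations of same-numbered libraries correlated at -0.14 across 13134 genes, and a block with crossed numbers, chosen after seeing the data, called 8 genes and 0 of the 10.

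Among the 6 genes tested, the sign turned across all alternatives for 1, Krt19 (log2 fold change -0.63 to 0.051 when 1 library was left out). Of the genes not tested, 2 with few counts also turned. The Atoh1 ratio went from 1.52 to 0.813 without WT replicate 1. Krt20, with a ratio of 0.347 over all libraries, had 4 RingKO and 0 WT counts without WT replicate 2. With the abundance trend removed, the log2 fold changes of Krt8, Krt18, Isl1, Ncam1 and Piezo2 were 1.19, 2.74, 1.96, 2.44 and 2.56. The cause of these differences between settings was not tested. Where a library is left out, the lone library of its genotype is assumed to vary like the other genotype.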

Other observations

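Some genes of the lists had most of their counts in 1 library. Insm1, a zinc finger factor of neuroendocrine cells, had 3 and 70 counts in RingKO and 2 and 2 counts in WT libraries. Hnf4a, a nuclear receptor of liver and intestine, had 37 and 0 counts in RingKO and 0 in both WT libraries. Tubb3, a neuronal tubulin, had 4 and 15 counts in RingKO and 70 and 7 counts in WT libraries, and Scg3, a granule protein, had 0 counts in both RingKO libraries and 0 and 13 counts in WT libraries. These genes were named after their values were seen and were not tested by edgeR at its default filter.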
